A study of Mus musculus with 2 samples.

Results

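The 10 genes described here encode the TGF-beta ligands and the proteins around them: Tgfb1, Tgfb2 and Tgfb3, the TGF-beta-induced matrix protein Tgfbi, the latent TGF-beta binding proteins Ltbp1, Ltbp2, Ltbp3 and Ltbp4, the activin subunit Inhba and the bone morphogenetic protein relative Gdf10. They were taken by symbol from the 28692 features of 2 single-cell libraries. Embryonic small intestine (SI) or large intestine (LI) from EYFP (C57BL/6) embryos, by the study's methods from EYFP males mated with C57BL/6Nrj females, was grafted beneath the capsule of the kidney in adult wild-type hosts and recovered after 4 weeks. Mesenchymal stromal cells (MSC) of graft origin were then sorted as live YFP+ cells that carried Itgb1 and lacked the blood cell markers CD45 and Ter119, the endothelial marker CD31, the epithelial marker EpCAM, the glial marker L1CAM and BP3. Both libraries therefore share the reporter, the host site and the gate. They differ in the segment that was grafted and also in their mix of male and female cells, given below. With 1 library each, segment cannot be told apart from other differences between the libraries. Each graft type gave 1 library, made from pooled grafts where the study's methods state it, so no difference between LI and SI has a replicate check and no p-value is given. Each level is a pooled CPM, the UMIs of a gene per 1e6 UMIs of all cells of a class, and the 95% intervals on levels (exact Poisson), shares (exact Clopper-Pearson) and ratios (exact binomial) cover counting error only. A difference counts as past the threshold when it reached 2-fold with at least 10 CPM on 1 side, and a log2 ratio here is the log2 of 2 levels after 1 CPM was added to each.

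TGF-beta is secreted in a latent form. Its propeptide stays wrapped around the mature dimer, and a latent TGF-beta binding protein, linked to that propeptide by disulfide bonds, tethers the complex to fibrillin and fibronectin fibres until integrins or proteases release the ligand. Activins, dimers of inhibin beta subunits, signal through the same SMAD proteins as TGF-beta, whereas bone morphogenetic proteins (BMP) use another SMAD branch. In the gut wall, fibroblasts beneath the epithelium supply many of these factors, and the balance of BMP and activin or TGF-beta signals is known to shape epithelial differentiation and matrix deposition.

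The LI library held 63348069 UMIs in 11568 barcodes and the SI library 54918006 UMIs in 9631 barcodes. Of these, 9873 LI and 7910 SI cells passed the cell filter (500 or more genes, no more than 10% of UMIs from mitochondrial genes), with medians of 5288 and 5682 UMIs. Only 26 barcode sequences occurred in both libraries. Cells were put into 8 stromal classes by how many markers of a list had a UMI, none of which was one of the 10 genes. LI and SI respectively gave 463 and 309 PDGFRAhi fibroblasts (FB), 2137 and 1761 CD81 FB, 1496 and 966 Fgfr2 FB, 3291 and 2219 other FB, 289 and 397 pericytes, 271 and 725 Myh11+ mural cells, 240 and 338 smooth muscle cells (SMC), and 320 and 51 interstitial cells of Cajal (ICC), the Kit-expressing pacemaker cells of the muscle layer. All fibroblasts together made up 80.3% of LI and 71.3% of SI cells. They include 540 LI and 382 SI mixed FB, cells that passed several fibroblast gates, were in no class and held 14.4% and 14.1% of the stromal Inhba UMIs. Clusters led by kidney tubule genes held 291 LI and 14 SI cells. The LI one, with a median of 1865 UMIs, held 3.62% of the female and 4 of the male gated LI fibroblasts. These cells stayed in the fibroblast values. Many cells lay close to the gates. Of all cells that passed the filter, 317 LI and 153 SI cells had exactly the 4 markers of the PDGFRAhi gate and 776 and 598 were 1 marker short. The ICC gate was 3 of 5 markers, and 225 of the 320 LI ICC and 36 of the 51 SI ICC had 4 or more. Among the leading genes of the SI Fgfr2 FB were the plasma cell transcripts Igkc, Igha and Jchain.

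**Figure D1:**
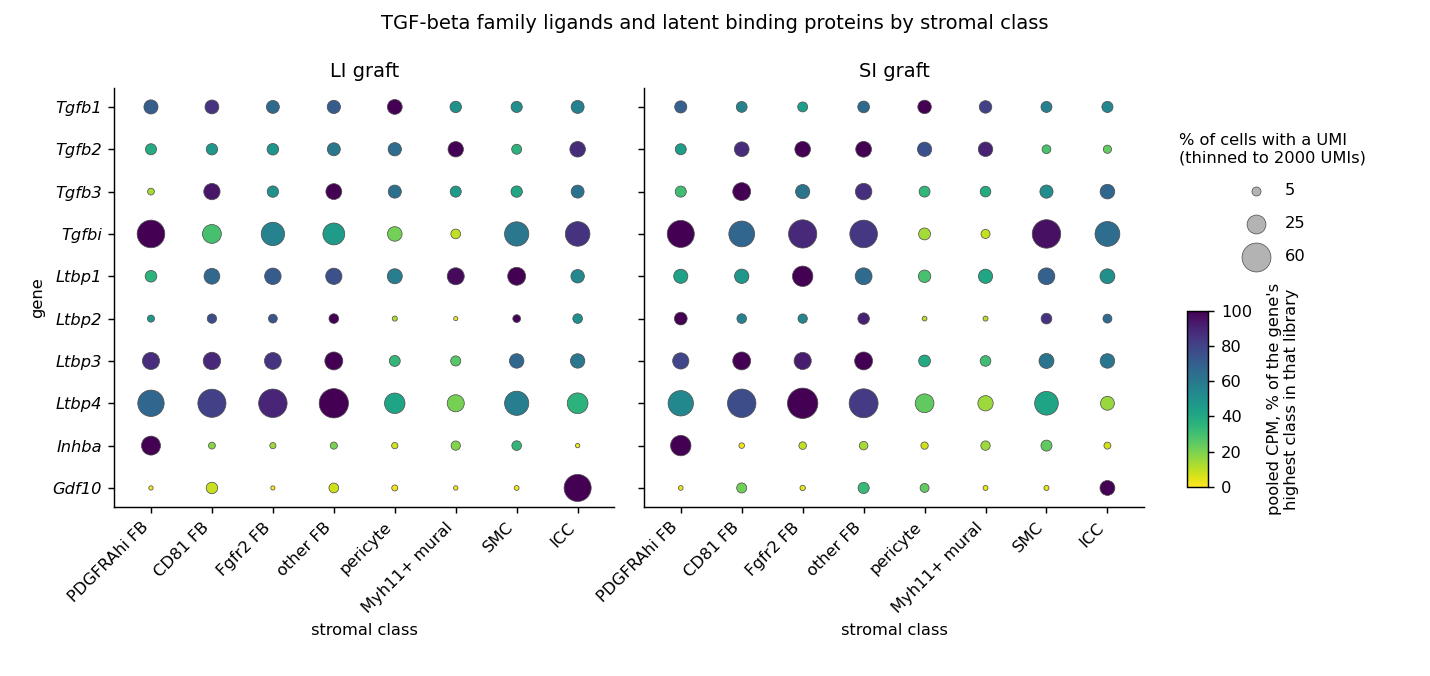
Pooled CPM as a percent of the gene's highest class in the same library (colour) and percent of cells with a UMI after thinning to 2000 UMIs (dot area) of the 10 genes (y axis) in the 8 stromal classes (x axis) of the LI and SI grafts. Inhba stands out in the PDGFRAhi FB of both libraries (190.0 and 228 CPM), Gdf10 in the ICC (528 and 157 CPM), and the dots of Ltbp2 are smallest and palest in pericytes and Myh11+ mural cells.

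Inhba and Gdf10, the members that were past 2-fold higher in a class of both libraries, start from promoters that differ in base composition. The 250 bases upstream of each start site are shown because these are the members that the class comparison below turns on. They were read from RefSeq on build GRCm38.p6, 5' to 3' on the + strand, at chr13:16011601-16011850 for Inhba and chr14:33923337-33923586 for Gdf10. Capitals mark every match, on either strand, to the TATA box letters TATAAA, the SMAD box CAGAC, the AP-1 letters TGANTCA or the GC box GGGCGG.
Inhba: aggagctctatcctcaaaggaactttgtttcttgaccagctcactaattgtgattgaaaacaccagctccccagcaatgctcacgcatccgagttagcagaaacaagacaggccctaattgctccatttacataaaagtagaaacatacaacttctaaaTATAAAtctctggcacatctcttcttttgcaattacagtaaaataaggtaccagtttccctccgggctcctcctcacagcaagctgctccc
Gdf10: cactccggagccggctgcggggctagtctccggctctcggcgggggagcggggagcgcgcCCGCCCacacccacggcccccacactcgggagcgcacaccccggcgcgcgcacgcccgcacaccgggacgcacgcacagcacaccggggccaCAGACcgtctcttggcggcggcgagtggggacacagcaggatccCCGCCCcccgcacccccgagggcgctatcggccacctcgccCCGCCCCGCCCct
The Inhba window was 43.2% G or C and held 1 match, TATAAA at bases 160 to 165. The Gdf10 window was 78.8% G or C, against a median of 52.4% over 32851 mouse promoter windows, and held 1 CAGAC and 4 GC boxes in their minus-strand spelling, of which 2 overlap at bases 238 to 248. TATAAA was found in 12.4% of all windows, CAGAC in 42.2%, TGANTCA in 6.75% and GGGCGG in 32.7%. Promoters of 9 of the 10 members matched the table by symbol. A match is a string of letters and was not tied to binding or to the levels below.

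Inhba, on chr13:16011851-16031621 (+ strand, GRCm38), encodes the beta A subunit that forms activin A as a homodimer. Its level was highest in PDGFRAhi FB, the fibroblasts that lie directly beneath the epithelium. The LI level was 190.0 CPM (173 to 208) in PDGFRAhi FB, 64.3 in SMC, 38.2 in other FB, 35.1 in Myh11+ mural cells, 34.3 in CD81 FB, 27.7 in Fgfr2 FB, 13.0 in pericytes and 4.96 in ICC. SI levels ran from 228 CPM (206 to 250) in PDGFRAhi FB through 55.6 in SMC, 33.1 in Myh11+ mural cells, 30.9 in other FB, 22.6 in Fgfr2 FB, 16.7 in pericytes and 16.5 in ICC to 6.74 in CD81 FB. PDGFRAhi FB led in both libraries with intervals clear of the next class, SMC. The place of SMC in LI was not stable, with 31.4 CPM in female SMC, 30.7 CPM in female other FB and 26.9 CPM in the 176 SMC of the SMC cluster. Against all other stromal cells the PDGFRAhi FB were higher by a log2 ratio of 2.32 (2.18 to 2.47) in LI and 3.12 (2.96 to 3.28) in SI. They held 19.2% of the stromal Inhba UMIs in LI and 27.7% in SI, with 5.12% and 4.32% of the cells. In LI the larger classes of CD81 FB (25.7%) and other FB (24.6%) each held more. A UMI of Inhba was found in 42.1% of LI PDGFRAhi FB (median depth 4925 UMIs) and 53.1% of SI PDGFRAhi FB (5742 UMIs), and in 25.4% and 29.4% after each cell was thinned to 2000 UMIs. The share was 1.56% among LI ICC (4109 UMIs), and 2 of 42 cells (4.76%, median 10387 UMIs) of the epithelial-like SI cluster, which the sort should have removed, had one.

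The Inhba level was higher in fibroblasts with more PDGFRAhi markers, and the largest ratio between neighbouring marker numbers lay at the gate, between 3 and 4 markers, in both libraries. LI fibroblasts with UMIs of 0 of the 9 markers had 27.3 CPM, those with 3 had 58.8, those with 4 had 109 and those with 6 or more had 206. The same steps in SI were 11.4, 42.4, 147 and 229 CPM. Median depth in these groups lay between 4537 and 6906 UMIs and did not rise in step with the markers. Tgfb3 went the other way, from 94.96 to 18.1 CPM in LI and from 108 to 37.1 CPM in SI between 0 and 6 or more markers.

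**Figure D2:**
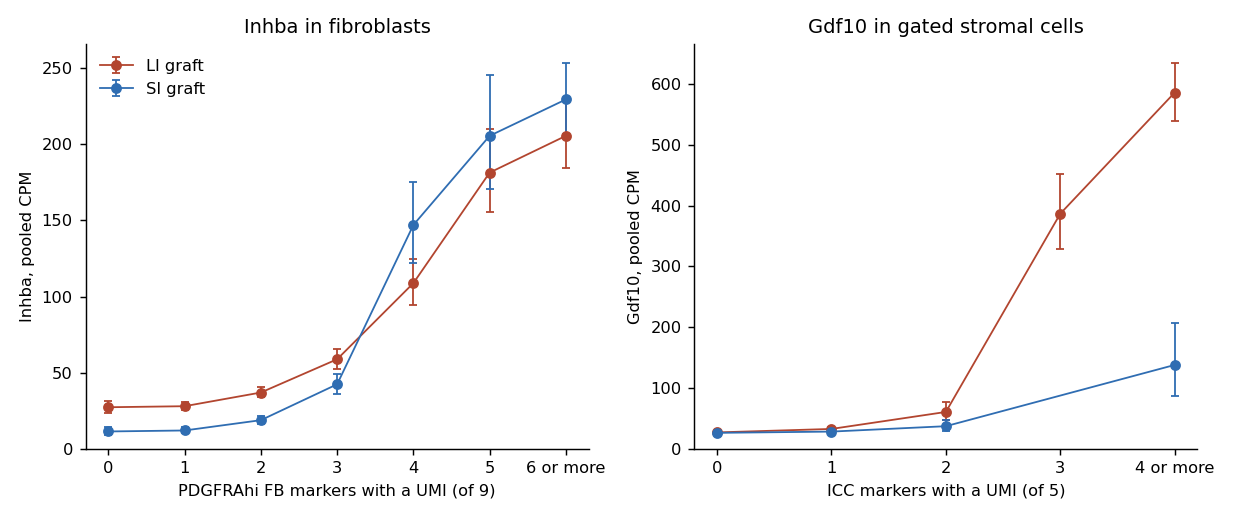
Pooled CPM (y axis, with 95% counting intervals) of Inhba in fibroblasts by the number of PDGFRAhi markers with a UMI, and of Gdf10 in stromal cells by the number of ICC markers with a UMI (x axes), for LI and SI. Inhba climbs from 27.3 to 206 CPM in LI and from 11.4 to 229 CPM in SI, and Gdf10 from 27.0 to 586 CPM in LI and from 26.2 to 138 CPM in SI. The SI group with 3 ICC markers held under 20 cells and is not drawn.

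Gdf10, also named BMP3B, on chr14:33923587-33937983 (+ strand), is a relative of the BMPs. Which SMAD branch it uses cannot be read from these levels. Its levels between classes spanned a 189-fold range in LI, the widest of the 10 genes there, and a 32.7-fold range in SI, where Inhba spanned 33.8-fold. LI ICC had 528 CPM (490 to 567), against 43.9 in CD81 FB, 37.2 in other FB, 13.7 in pericytes, 5.66 in PDGFRAhi FB, 5.40 in Myh11+ mural cells, 4.33 in SMC and 2.80 in Fgfr2 FB. SI ICC had 157 CPM (111 to 215), against 51.2 in other FB, 37.6 in pericytes, 34.2 in CD81 FB, 6.32 in Fgfr2 FB, 5.25 in SMC, 4.94 in Myh11+ mural cells and 4.81 in PDGFRAhi FB. ICC led in both libraries with intervals clear of the next class, at a log2 ratio over other stromal cells of 4.16 (4.03 to 4.28) in LI and 2.49 (1.99 to 2.95) in SI. A UMI was found in 67.2% of LI ICC (52.6% after thinning) and 21.6% of SI ICC (15.3% after thinning, median depth 4587 UMIs), against 1.08% and 1.29% of LI and SI PDGFRAhi FB (0.430% and 0.671% after thinning). In the epithelial-like SI cluster 0 of 42 cells had a UMI, which allows a share of cells with a UMI of up to 8.41% by the exact interval and 7.14% by 3 counts. ICC held 32.4% of the stromal Gdf10 UMIs in LI and 2.98% in SI, where they were 0.713% of the stromal cells. Most SI transcripts lay in other FB (44.7%) and CD81 FB (37.8%). Of the 51 SI ICC, 33 lay in the Kit-led cluster and 12 in an SMC cluster. By cluster the SI lead was reversed, with 105 CPM in the Kit-led cluster and 186 CPM in a fibroblast cluster led by Jam2 and Fibin. Only 16, 47, 38 and 34 SI ICC were left under a stricter cell filter, without the highest doublet scores, with gates on thinned counts and among female cells, all under the minimum of 50, and the SI value then could not be set beside LI.

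Follistatin (Fst), which binds and neutralises activins, marked a gap between these ICC classes. It had 1377 UMIs, or 976 CPM (926 to 1029), in LI ICC and 0 UMIs in SI ICC, where 3 counts would be 12.4 CPM. The LI level was thus 78.8-fold the level that this floor of 3 counts makes in the SI class. The exact interval allows up to 15.2 CPM in SI, so 78.8 is not a lower limit. Between these ICC classes 22.6% of all genes tested passed 2-fold in either direction. Fst was looked at within ICC after its values were seen.

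The ligands themselves were spread across classes. Tgfb1 (chr7:25687002-25705077, + strand), the isoform best known from immune regulation and fibrosis, ranged from 51.3 CPM in Myh11+ mural cells to 104 CPM in pericytes in LI, a 2.04-fold range. The SI range ran from 34.5 CPM in Fgfr2 FB to 77.7 CPM in pericytes. Pericytes led both times over all cells, but their interval overlapped that of the next class in both libraries, and 6 of 7 LI and 7 of 7 SI neighbours in the order overlapped. Over female LI cells PDGFRAhi FB led instead (73.9 against 67.8 CPM in pericytes), and with clusters in place of gates other FB led in LI. Tgfb2 (chr1:186622792-186705989, - strand), an isoform with broad roles in development, was highest in Myh11+ mural cells in LI (105 CPM) and lowest in SMC (37.6). Its SI levels were 103 CPM in other FB and in Fgfr2 FB and 24.8 CPM in ICC. Its leading class thus differed between the libraries, and in both the leading intervals overlapped.

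Tgfb3 (chr12:86056745-86079041, - strand), the isoform linked to palate closure and low-scar repair, was the ligand with the clearest class pattern. PDGFRAhi FB were lowest in both libraries, at 13.3 CPM in LI and 37.9 CPM in SI. In SI their interval (29.6 to 47.8) overlapped those of pericytes (42.2 CPM, 33.5 to 52.5) and Myh11+ mural cells (47.7 CPM, 41.8 to 54.3). Other FB (97.8) and CD81 FB (92.3) led in LI, and CD81 FB (123) and other FB (106) led in SI. PDGFRAhi FB were below all other stromal cells by a log2 ratio of -2.49 (-2.98 to -2.02) in LI and -1.29 (-1.64 to -0.96) in SI.

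Tgfbi (chr13:56609523-56639562, + strand), a secreted adhesion protein of the matrix that is named for its induction by TGF-beta, was highest in PDGFRAhi FB and lowest in pericytes and Myh11+ mural cells of both libraries. PDGFRAhi FB led with 571 CPM in LI, followed by ICC (487) and SMC (344). PDGFRAhi FB (561), SMC (539) and Fgfr2 FB (497) led in SI, where ICC (364) came sixth of 8. Myh11+ mural cells were lowest with 52.7 and 48.3 CPM, and pericytes came next with 122 and 74.6 CPM. The PDGFRAhi interval stood clear of the next class in LI but overlapped that of SMC in SI. CD81 FB had 167 CPM in LI and 379 CPM in SI.

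**Figure D3:**
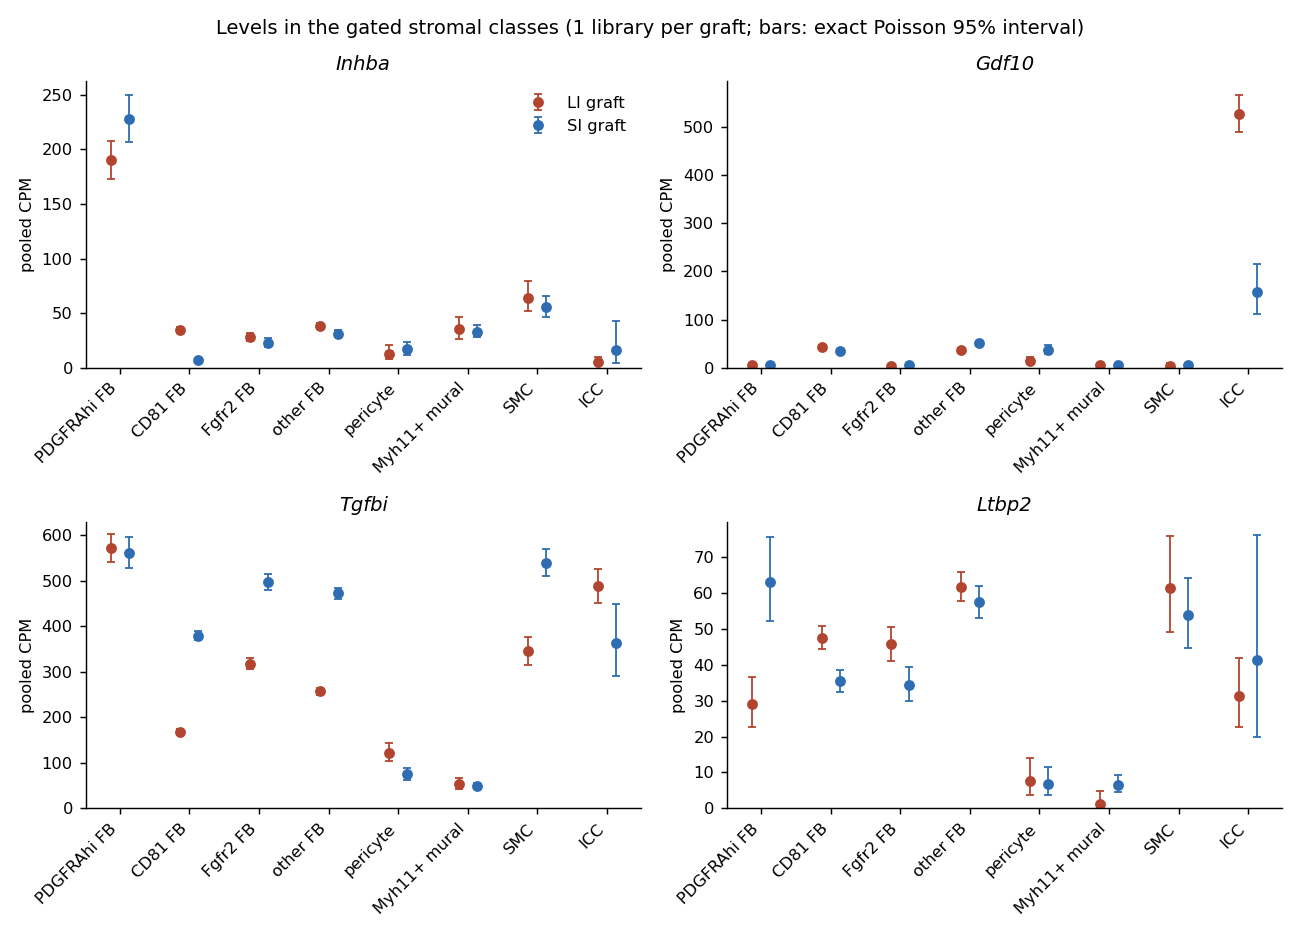
Pooled CPM with 95% counting intervals (y axes) of Inhba, Gdf10, Tgfbi and Ltbp2 in the 8 stromal classes (x axis) of the LI and SI grafts. PDGFRAhi FB lead for Inhba and Tgfbi and ICC for Gdf10 in both libraries, and pericytes and Myh11+ mural cells are lowest for Ltbp2, between 1.35 and 7.62 CPM.

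Among the latent binding proteins, Ltbp2, Ltbp3 and Ltbp4 were lowest in Myh11+ mural cells of both libraries, and Ltbp1 was not. The mural interval overlapped that of pericytes for Ltbp2 and Ltbp3 in both libraries, and that of ICC for Ltbp4 in SI. Ltbp2 (chr12:84783212-84876532, - strand), which binds fibrillin but not latent TGF-beta, had 1.35 CPM in LI and 6.58 CPM in SI mural cells and 7.62 and 6.78 CPM in pericytes. Its other classes lay between 29.1 and 61.7 CPM in LI and between 34.3 and 63.0 CPM in SI. The LI SMC level of 61.4 CPM came from 85 UMIs in 18 of 240 cells. By cluster, LI levels were 7.59 CPM in SMC, 24.0 and 9.63 in the Fgfr2 clusters and 4.08 in pericytes, a weaker contrast for these classes. The SI SMC clusters had 31.3 and 53.7 CPM, against 5.99 and 6.05 CPM in the SI pericyte clusters. The mural log2 ratio to other stromal cells was -4.44 (-5.45 to -3.11) in LI and -2.50 (-2.97 to -2.05) in SI. Ltbp3 (chr19:5740904-5758532, + strand), a binder of all TGF-beta isoforms that is known from bone and tooth, was nearly level over the fibroblast classes, at 107 to 126 CPM in LI and 96.7 to 122 CPM in SI. It was lower in mural cells (33.1 and 37.6) and pericytes (42.7 and 48.0). Ltbp4 (chr7:27305136-27337692, - strand), which organises elastic fibres, was at 350 to 520 CPM in the LI and 327 to 615 CPM in the SI fibroblast classes. Mural cells had 109 and 93.4 CPM of Ltbp4, and ICC 186 and 95.02 CPM. A separate feature with the same symbol had 0 UMIs.

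Ltbp1 (chr17:75005568-75392512, + strand), the main carrier of latent TGF-beta in many tissues, had another order. SMC (142) and Myh11+ mural cells (138) led in LI, and PDGFRAhi FB were lowest with 50.5 CPM. Fgfr2 FB led in SI with 173 CPM, clear of SMC at 120, and pericytes were lowest with 50.6 CPM. LI and SI thus gave different leading classes for Ltbp1, and 5 of 7 neighbours in the order overlapped in each library.

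Counted against all genes, 15 gene and class pairs passed the 2-fold threshold in the same direction in both libraries, 2 higher and 13 lower than the other stromal cells. PDGFRAhi FB had 1 member higher (Inhba), where 2.67% of all genes tested were higher in both, and 2 lower (Tgfb3 and Gdf10), where 3.58% were lower. ICC had Gdf10 higher (background 6.37%) and Ltbp4 lower (6.04%). Myh11+ mural cells had none higher (7.67%) and 5 lower (Tgfbi, Ltbp2, Ltbp3, Ltbp4 and Gdf10, background 7.51%). Pericytes had none higher (5.31%) and 3 lower (Tgfbi, Ltbp2 and Ltbp3, background 5.73%). Fgfr2 FB had none higher (0.676%) and Gdf10 lower (1.74%), and SMC had none higher (2.99%) and Gdf10 lower (2.96%). CD81 FB (1.14% higher, 2.92% lower) and other FB (0.0358% and 0.668%) had no member past the threshold either way. The comparison of each class is with all other gated stromal cells, so a class that makes up most of them moves the reference. Of the 10 genes, 5 had the same leading class in both libraries (Tgfb1, Tgfbi, Ltbp3, Inhba and Gdf10), where 47.8% of all genes did. For Ltbp3 the SI levels of other FB and CD81 FB were both 122 CPM.

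Between the segments, no member reached 2-fold in all fibroblasts, 7927 LI and 5637 SI cells, where 1.93% of 8621 genes tested were higher in LI and 1.62% higher in SI. Tgfb1 came nearest on the LI side with 79.3 CPM in LI and 44.2 CPM in SI, a log2 ratio of 0.83 (0.75 to 0.91). Tgfb2 had 52.9 and 95.3 CPM (-0.84, -0.91 to -0.77) and Tgfbi 254 and 444 CPM (-0.80). The ligands thus lay on opposite sides, Tgfb1 higher in LI fibroblasts and Tgfb2 and Tgfb3 (log2 -0.36) higher in SI. Inhba had 45.6 and 33.2 CPM (0.44), and the remaining 5 members lay between log2 ratios of -0.16 and 0.25. The median over the 10 members was -0.085 and that over all genes tested was -0.007.

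Within classes, members passed 2-fold between LI and SI as follows. CD81 FB had Tgfb1 (log2 1.01) and Inhba (2.19, 34.3 against 6.74 CPM) higher in LI and Tgfbi (-1.18) higher in SI, with a background of 4.22% of genes in either direction. Different clusters filled the CD81 gate, mainly the Myoc and Lpl cluster (778 cells) and the Fmo2 and Lsamp cluster (366) in LI and the Pcolce2 and Cpz cluster (667) and the Pi16 and Igfbp6 cluster (616) in SI. CD81 FB of these clusters had 4.48 and 1.40 CPM of Inhba in LI and 3.38 and 9.21 CPM in SI, and of the 627 Inhba UMIs of LI CD81 FB, 285 lay in 181 cells of the Cthrc1 and Prg4 cluster and 261 in 360 cells of the Ctla2a and Fgfbp1 cluster. Tgfbi in the same 4 sets was 134 and 402 CPM in LI and 576 and 186 CPM in SI. Tgfb1 in them was 44.4 and 32.9 CPM in LI and 34.9 and 45.5 CPM in SI, and of the 1622 Tgfb1 UMIs of LI CD81 FB, 619 lay in the 360 cells of the Ctla2a and Fgfbp1 cluster and 251 in 182 cells of the Areg and Ereg cluster. PDGFRAhi FB had Tgfb3 (-1.44) and Ltbp2 (-1.09) higher in SI, against 8.12%. Fgfr2 FB had Tgfb2 (-1.01) higher in SI, against 5.06%, and pericytes had Gdf10 (-1.39) higher in SI, against 6.49%. Of the 72 Gdf10 UMIs of SI pericytes, 70 lay in 45 cells of the Jam2 and Fibin fibroblast cluster. The 329 SI pericytes of the pericyte cluster had 1.35 CPM and the 253 LI ones 0.957 CPM, so the call rests on those 45 cells. No member passed in other FB (3.62%), Myh11+ mural cells (3.84%) or SMC (6.89%). ICC had Tgfb2 (1.85) and Gdf10 (1.74) higher in LI and Inhba (-1.56) higher in SI, against a background of 22.6% for these 320 and 51 cells. The SI level of Inhba in these 51 cells was 16.5 CPM, near the 12.4 CPM that 3 counts make. Over female cells alone the CD81 FB values were 1.28 for Inhba and -1.26 for Tgfbi, the PDGFRAhi FB values -1.46 for Tgfb3 and -1.48 for Ltbp2. Gdf10 in female pericytes was at -3.14 (6.35 against 64.0 CPM), counted with cells of the Jam2 and Fibin cluster in the gate. Tgfb2 in female Fgfr2 FB was at -0.91, short of 2-fold. Over female cells alone further pairs passed the threshold, all higher in SI. Among these were Inhba in Fgfr2 FB (-1.41, against 0.29 over all cells and 3.58, 141 against 10.8 CPM, over male cells) and in SMC (-1.47, 31.4 against 89.0 CPM, and 0.21 over all cells). Also past it were Inhba in the 217 LI and 175 SI female pericytes (-2.90, -4.35 to -1.42, 3.18 against 30.1 CPM, and -0.34 over all cells) and Ltbp2 in Myh11+ mural cells (-2.26, 1.52 against 11.1 CPM). The last was at -1.69 over all cells (1.35 against 6.58 CPM) and was not counted there because both levels were under 10 CPM. The background in female cells, in either direction, was 9.69% of genes in PDGFRAhi FB, 3.51% in CD81 FB, 4.82% in Fgfr2 FB, 3.46% in other FB, where no member passed, 10.2% in pericytes, 4.89% in Myh11+ mural cells and 9.71% in SMC.

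**Figure D4:**
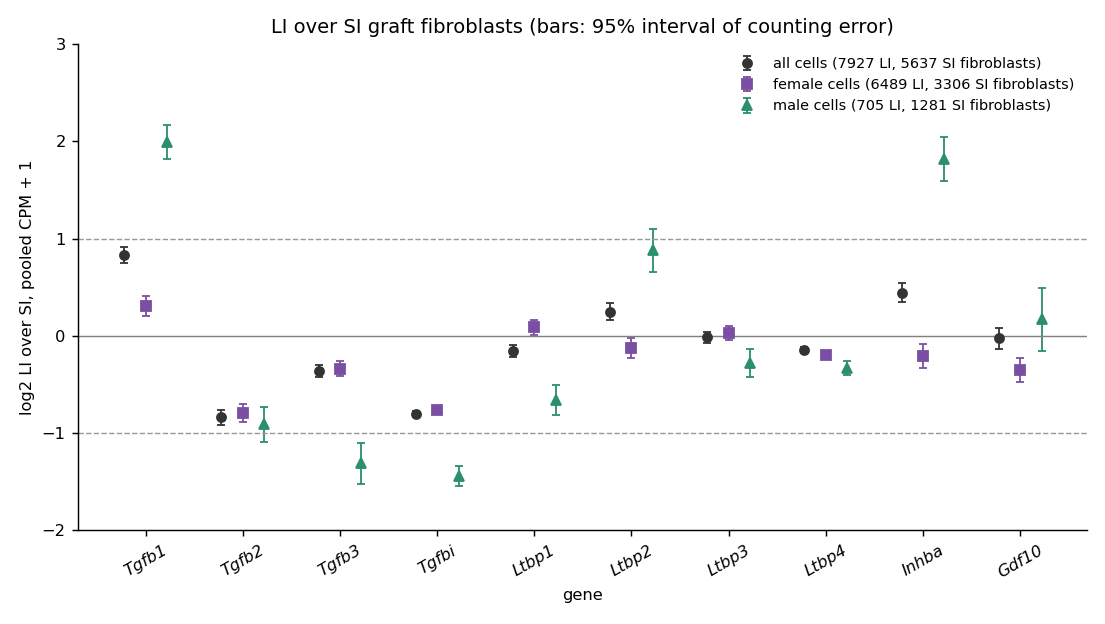
Log2 ratio of pooled CPM, LI over SI, in all fibroblasts (y axis, with 95% counting intervals) of the 10 members (x axis), over all cells, female cells and male cells. No member passes 2-fold (log2 of 1 in either direction) over all cells or over female cells. Tgfb1 (1.99) and Inhba (1.82) pass on the LI side and Tgfb3 (-1.31) and Tgfbi (-1.44) on the SI side over male cells.

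The libraries mixed male and female cells in unequal parts, 9.004% male in LI and 24.3% in SI by Xist and Y-linked transcripts, and the LI over SI values depended on which were taken. Female cells were 80.7% of LI and 55.0% of SI cells, and the other 1017 LI and 1635 SI cells, of unclear sex, enter neither the female nor the male values. Over all fibroblasts, 2.89% of genes passed 2-fold in either direction in female cells and 13.2% in male cells, where 4 members passed (Tgfb1, Tgfb3, Tgfbi and Inhba). Male and female cells come from different animals, which are different embryos if all are of graft origin, so sex, animal and graft cannot be told apart. Clusters led by kidney tubule genes were left after the sort, and host origin of male or female cells was not tested. Tgfb1 was 0.31 (0.20 to 0.41) in female and 1.99 (1.82 to 2.16) in male fibroblasts on the log2 scale. Inhba was -0.21 in female and 1.82 in male cells, a change of direction. In CD81 FB the Tgfb1 value of 1.01 became 0.28 in female and 2.11 in male cells, so the call there was lost when both the male cells and those of unclear sex were left out. Tgfb2 was the steadier ligand, at -0.79 in female and -0.91 in male cells.

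The contrast of male with female fibroblasts ran in opposite directions in LI and SI for Tgfb1 and Inhba. The 705 male LI fibroblasts had 140.4 CPM of Tgfb1 and the 6489 female ones 62.1 CPM, while the 1281 male SI fibroblasts had 34.5 CPM and the 3306 female ones 50.02 CPM. Inhba was 71.2 against 39.4 CPM in LI and 19.5 against 45.7 CPM in SI. The higher Tgfb1 of male LI cells was present in each class with enough of them, at 150 against 61.4 CPM in CD81 FB, 156 against 60.7 in Fgfr2 FB and 135 against 62.0 in other FB. Nearly all male LI fibroblasts, 666 of 705 (94.5%), lay in the clusters led by Areg and Ereg and by Ctla2a and Fgfbp1, which held 1.40% of the female ones. Those clusters had 159 and 136 CPM of Tgfb1.

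**Figure D5:**
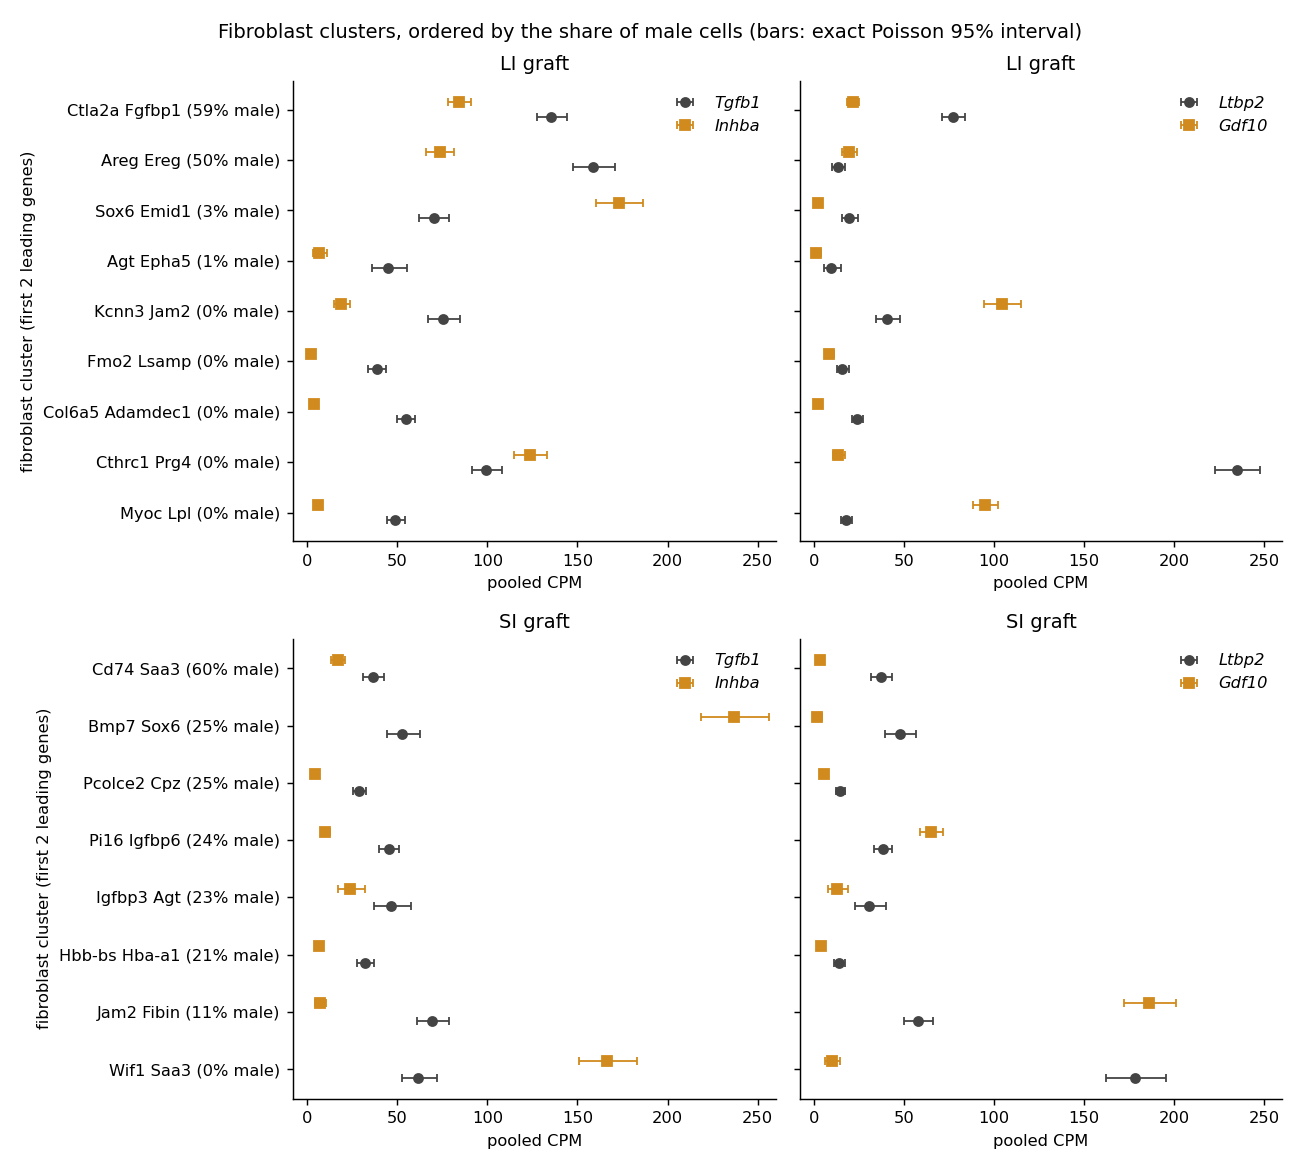
Pooled CPM (x axes, with 95% counting intervals) of Tgfb1 and Inhba (left) and Ltbp2 and Gdf10 (right) in each fibroblast cluster of LI and SI, ordered down the y axis from the highest percent of male cells to the lowest. Tgfb1 is highest in the LI clusters with the most male cells (159 and 136 CPM), Ltbp2 peaks in 1 cluster of each library (235 and 178 CPM), and Gdf10 in the Jam2 clusters (104 and 186 CPM).

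Clusters built without the 10 genes showed patterns that the gates did not hold. Ltbp2 reached 235 CPM (222 to 248) in a LI cluster of 427 cells led by Cthrc1 and Prg4, and 178 CPM (162 to 195) in a SI cluster of 448 cells led by Wif1 and Saa3. The same clusters had 124 and 167 CPM of Inhba, so Inhba was not only a PDGFRAhi transcript. The LI cluster held 0 and the SI cluster 1 of the male fibroblasts of their library, against 5.15% and 12.3% of the female ones. The Ctla2a and Fgfbp1 cluster of LI, 58.6% male, came next among the LI fibroblast clusters with 77.2 CPM of Ltbp2, and it had 84.3 CPM of Inhba. A LI cluster led by the cell cycle genes Ube2c and Cenpf had 82.2 CPM of Ltbp2. The Cthrc1 and Prg4 cluster had a median depth of 14289 UMIs, the highest of its library, and the lowest Tgfbi of the LI fibroblast clusters at 21.9 CPM. Inhba was at 173 CPM in LI and 237 CPM in SI in the clusters led by Sox6 and Bmp7. Gdf10 outside ICC was found in clusters led by Kcnn3 and Jam2 in LI (104 CPM) and Jam2 and Fibin in SI (186 CPM), and in the LI cluster led by Myoc and Lpl (95.1 CPM). The Kit-led clusters had 481 CPM in LI and 105 CPM in SI, so in SI the Kit-led cluster was below the Jam2 and Fibin cluster.

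Of 49 other genes of the pathway, 41 could be tested in all fibroblasts, and 3 passed 2-fold, all higher in LI, where 1.93% of all genes were higher in LI and 1.62% higher in SI. Fst (62.9 against 17.3 CPM, log2 1.81) and Ctgf (1.08), a matricellular protein and classical TGF-beta target gene, were among them. Postn (0.92) and Thbs1 (0.87), which encodes an activator of latent TGF-beta, stayed short of the threshold. None of the 7 receptors, 7 activators, 5 matrix partners, 4 SMAD genes or 3 other family ligands tested passed, and Fst was the only 1 of the 8 inhibitors. The median over the list was 0.047. By class, Pmepa1, an inhibitor of SMAD signalling, had 2186 and 3480 CPM in LI and SI PDGFRAhi FB, and the type II receptor gene Tgfbr2 had 233 and 412 CPM there. Fbn2, a fibrillin, had 197 and 222 CPM in the same cells. Lrrc32, which encodes the membrane anchor GARP for latent TGF-beta, had 117 and 131 CPM in Myh11+ mural cells, the class with the lowest Ltbp2, Ltbp3 and Ltbp4. Pericytes had 92.3 and 91.8 CPM of Lrrc32. Fgfr2 FB, which led SI for Ltbp1 and Ltbp4, had 61.7 CPM in LI and 107 CPM in SI. A link between Lrrc32 and the binding proteins was not tested.

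Over the 16 profiles of 8 classes in 2 libraries, which share their library and depth, the genes most like each member by Pearson's r among 9922 genes were named as a description. Inhba was most like Sox6 (0.84) and Bmp5 (0.82), both markers used for the PDGFRAhi gate, and Mchr1 (0.81). Gdf10 was most like Mapk13 (0.94), Ltbp3 like Trp53i13 and Loxl1 (both 0.97), Ltbp4 like Naaladl2 (0.97), Tgfbi like Myh10 (0.93) and Ltbp2 like Arfgap1 (0.93). Tgfb1 (H13, 0.82), Tgfb2 (Irf9, 0.79), Tgfb3 (Vldlr, 0.84) and Ltbp1 (Igf1r, 0.72) had looser nearest genes. Among the members, Ltbp2 with Ltbp3 (0.88), Ltbp3 with Ltbp4 (0.86) and Tgfbi with Ltbp2 (0.85) ran together, and Inhba ran against Gdf10 (-0.64) and Tgfb3 (-0.62).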

How the data were processed

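Droplet single-cell RNA was measured in 1 LI graft and 1 SI graft library of YFP+ MSC sorted 4 weeks after grafting. The authors deposited UMI counts per gene and barcode, made with Cell Ranger 3.1.0 and mm10 per the submitters' processing notes, which also name Seurat. Which of the kits named in the methods made each library is not given in the sources used here. Cells with fewer than 500 genes or over 10% mitochondrial UMIs were dropped. Fixed marker lists placed cells in classes. The gates, at least 4 of 9 PDGFRAhi, 4 of 9 CD81, 3 of 5 Fgfr2, 4 of 8 pericyte, 6 of 8 smooth muscle and 3 of 5 ICC markers with a UMI, were set after the data were seen. Cells with at least 3 markers of a contaminant list, or passing gates of several stromal types, were left out, but cells passing several fibroblast gates (mixed FB) stayed among all fibroblasts and all gated stromal cells. Scrublet called 0 LI and 1 SI doublets and was not relied on, and an alternative drops 1071 and 742 barcodes with the highest scores. Raw counts were summed per class and library and divided by the class total (CPM, pseudocount 1 CPM). With 1 library per group no count model was used. Genes that could be named were the 10 members, pathway genes with at least 10 CPM in a class, and the 3 genes most correlated with each member. The members and lists were chosen with earlier results of these data known. Clusters (scanpy 1.11.5) left out the 10 genes. Scripts used Python 3.11.15, scipy 1.17.1 and edgeR 4.0.16 (TMM factors as an alternative) and were tested on simulated data. In all, 12 alternatives were tried. A gene of the pathway list is not reported here.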

Additional observations from a re-analysis of the deposited data

Results flagged for a closer look

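The contrast of male with female fibroblasts had opposite signs in the LI and SI libraries for 5 of the 10 genes, and for 3 of them the counting intervals of both libraries were clear of 0. Of 8324 genes with at least 10 CPM in either sex of each library, 40.5% had opposite signs and 10.6% also had both intervals clear of 0. The difference between the libraries was not tested, since each graft type gave 1 library, and male and female cells come from different animals. The male over female log2 ratio of Inhba was 0.84 in LI and -1.19 in SI, 2.02 apart. For Tgfb1 it was 1.16 and -0.52, 1.69 apart, and for Ltbp1 -0.54 and 0.21, a gap of -0.75.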

How the results depend on the processing

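No paired analysis was possible because there was 1 library per group, and no replicate could be left out. In all fibroblasts the count of members past 2-fold between LI and SI was 0 in all alternatives but male cells, where it was 4, and the pathway count of 3 became 9 there, with 13.2% of all genes past 2-fold. The 2 gene and class pairs higher in both libraries became 1, Inhba in PDGFRAhi FB, under the stricter cell filter, without the highest doublet scores, with thinned gates and in female cells, because fewer than 50 SI ICC were left. The count was 0 in male cells, where only 3 classes had enough cells. With clusters in place of gates ICC was not compared either (39 SI cells), and the 2 pairs were Inhba in PDGFRAhi FB and Gdf10 in CD81 FB. The count of genes with the same leading class, 5, became 3 under the stricter filter and without the highest doublet scores, and 2 in female cells (Inhba and Tgfb3, of which Tgfb3 was not among the 5). ICC was not compared in these settings, so Gdf10 could not keep its leading class. Of 188 leading-class levels under an alternative, 117 stayed within the counting interval, as did 87 of 120 log2 ratios. The sign of the LI over SI ratio turned in 1 to 3 of the 12 alternatives for Ltbp1, Ltbp2, Ltbp3, Inhba and Gdf10. Inhba ran from -0.21 in female to 1.82 in male cells. The small number of SI ICC, 51 cells, limits every value there.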
